A study of Mus musculus with 9 samples.

Results

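Oxidative phosphorylation is run in mitochondria by 5 protein complexes, and the transcripts of their nuclear-encoded subunits were followed here in Mac1+ bone marrow cells. Members were chosen by gene symbol, from the prefixes Nduf (complex I), Sdh (complex II), Uqcr (complex III), Cox4 to Cox8 (complex IV) and Atp5 (complex V), without assembly factors named Ndufaf and without pseudogenes. The rule found 87 of the 23420 symbols in the table, with 36 in complex I, 6 in complex II, 8 in complex III, 20 in complex IV and 17 in complex V. Ndufa4 and Ndufa4l2 were counted in complex IV, where the Ndufa4 protein sits despite its name. A symbol rule also takes in 4 genes that encode no subunit, namely the succinate dehydrogenase assembly factors Sdhaf1 and Sdhaf2 and the Atp5s and Atp5sl genes, as well as Cox7a2l, a factor that joins complexes into supercomplexes.

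The libraries came from C57BL/6 mice and were prepared from 100 sorted cells each with Smart-seq2, which reads whole transcripts without recording strand. Mac1 is a surface integrin of granulocytes and monocytes. The DKOITD group (n = 4) was Ezh2 fl/fl, Runx1 fl/fl, Rag1Cre+ and Flt3 ITD/+, the ITD group (n = 2) was Ezh2 fl/fl, Runx1 fl/fl and Flt3 ITD/+ without Cre, and the WT group (n = 3) was Ezh2 fl/fl and Runx1 fl/fl with neither Cre nor the internal tandem duplication (ITD). All 3 groups therefore carried both floxed genes, which encode a polycomb methyltransferase and a blood cell transcription factor. Rag1 is a gene of lymphoid precursors, and no source used here gives the fraction of Mac1+ cells in which Cre had acted. Neither age nor sex is given there. Whether the libraries came from separate animals is not stated either, so each p-value covers library-to-library spread alone, which may be technical.

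Complex I takes electrons from NADH and complex II takes them from succinate. Both pass them through coenzyme Q to complex III, then through cytochrome c to complex IV, where oxygen is reduced. Complexes I, III and IV pump protons, and complex V, the ATP synthase, uses the gradient to make ATP. Mature neutrophils rely largely on glycolysis, while monocytes, dendritic cells and dividing progenitors depend more on respiration. The promoters of many of these genes are known to bind the factors NRF1 and GABP (an ETS factor) and YY1.

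The promoter letters of members that hold an NRF1 motif are shown because these genes share a regulatory sequence and yet differed in sign between the groups. RefSeq promoter windows of GRCm38.p6 (250 bases before to 50 after the annotated start) were found for 69 of the 87 members. In each line the 9 capitals mark the first match, on either strand, and the strand given is that of the gene.
Atp5g2, chr15:102671061-102671109, minus strand, a c-ring subunit of complex V: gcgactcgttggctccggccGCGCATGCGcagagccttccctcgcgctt
Atp5k, chr5:108434421-108434469, minus strand, a membrane subunit of complex V: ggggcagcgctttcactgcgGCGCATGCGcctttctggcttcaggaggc
Atp5l, chr9:44920955-44920992, minus strand, a membrane subunit of complex V: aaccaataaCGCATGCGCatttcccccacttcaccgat
Cox6a1, chr5:115349092-115349140, minus strand, a subunit of complex IV: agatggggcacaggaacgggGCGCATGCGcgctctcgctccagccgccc
Ndufa11, chr17:56717682-56717730, plus strand, an accessory subunit of complex I: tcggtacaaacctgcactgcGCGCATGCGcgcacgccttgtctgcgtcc
Ndufa8, chr2:36049339-36049367, minus strand, an accessory subunit of complex I: cgcttgcgcgtcgctggagaCGCATGCGC

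The NRF1 motif GCGCATGCG, which overlaps its own reverse complement, stood in 8 of the 69 windows (11.6%), against 1.95% of the windows of all 27025 genes. The ETS motif CCGGAAG stood in 18 (26.1%, against 9.93% of all genes), and the YY1 motif AAGATGGCG in 7 (10.1%, against 1.64%). The box CCAAT, searched on both strands like the others, stood in 30 (43.5%, against 41.1%). A match is a description of letters, not a bound site.

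Levels were given as RPKM, reads scaled to gene length and to library size, so genes can be compared per length. Of the 87 members, 80 passed the filter of at least 1 RPKM in at least 2 libraries and were tested. They had a median of the mean level over 9 libraries of 165 RPKM, and 54 of them reached 100 RPKM. Complex IV members had the highest median, at 361 RPKM over 14 tested genes, and Cox4i1, the common form of its regulatory subunit 4, was the most abundant member at 845 RPKM. Ndufa3 led complex I at 665 RPKM, Atp5j led complex V at 454 RPKM, Uqcrh led complex III at 350 RPKM and Sdhb led complex II at 219.5 RPKM. The 7 core subunits of complex I, those that carry its redox centres, had a lower median of 72.8 RPKM.

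The 7 members that were not tested are Ndufs5 and 6 isoforms restricted to other tissues. Ndufs5 was listed at 0 in every library. A near-identical gene, BC002163, whose transcript matches the Ndufs5 transcript at 99.4% identity, was listed at 47.2, 35.0, 49.6 and 48.1 RPKM in DKOITD libraries 1 to 4, against 78.0 and 63.0 in ITD and 80.2, 78.9 and 43.4 in WT. No source used here gives how reads of near-identical copies were shared out, so the 0 of Ndufs5 cannot be read as absence. Of 86 members with a transcript to compare, 13 have a match of at least 95% identity over at least 50% of the transcript in another gene, among them Atp5l with 9 and Uqcrb with 3, and their levels are uncertain for the same reason. One of the 13 is Sdhaf1, whose match is the overlapping gene E130208F15Rik.

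Between DKOITD and WT, 8 of the 80 tested members passed the test (10%), against 12.7% of all 10868 genes tested. Of these 8, 5 rose (7.43% of all genes rose) and 3 fell (5.27% of all genes fell). The median difference over the 80 members was −0.03 on the log2(RPKM + 1) scale, against 0.17 over all genes, with 39 members above 0 and 41 below. At an unadjusted p under 0.05 stood 30 members (37.5%, against 30.2% of all genes), and in 22 members (27.5%, against 25.0% of all genes) the groups did not overlap. The members as a group were therefore called at about the rate of all genes tested, but less often than genes of similar level. Among genes with a mean log2 level above 5, members included, 19.8% of those under 600 bp were called. The share was 24.4% at 1000 bp or more and 17.3% in between. Of members above that level 2 of 30 (6.67%), 3 of 23 (13%) and 2 of 15 (13.3%) were called, in the same order. The count of 8 member calls rested on single libraries. It was 0 without DKOITD 3, 1 without DKOITD 1 or without WT 2, and 22 without WT 3. The sample descriptions carry numbers under 300 for DKOITD 1 to 3 and above it for the other 6 libraries, what they mark is not given, and with that series as a term in the fit 0 members passed (limma). These are bulk samples, in which fewer cells of a type and less RNA per cell cannot be told apart.

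Levels of cell type markers differed between the groups. Summed over 12 neutrophil markers, the level was 37366 to 271227 RPKM in DKOITD, 694664 to 740266 RPKM in ITD and 893843 to 1199360 RPKM in WT, and 10 of the 12 fell in DKOITD against WT. Summed over 13 dendritic cell markers, it was 9459 to 38136 RPKM in DKOITD, 4231 to 11397 RPKM in ITD and 53.9 to 1226 RPKM in WT, and 11 of the 13 rose in DKOITD against WT. Summed erythroid markers reached 17210 RPKM in WT 1 and 5468 RPKM in WT 2, against 20.2 RPKM in WT 3, at most 9.50 RPKM in DKOITD and 2863 RPKM in ITD 2. Summed over 6 T cell markers, the level was 2.29 to 7.70 RPKM in DKOITD, 2.44 to 17.6 RPKM in ITD and 9.16 to 13.7 RPKM in WT, and Cd3e was the marker at 0 in every library. Of 8 monocyte and macrophage markers 4 rose in DKOITD against WT and none fell. Their sum was 1988 to 3297 RPKM in DKOITD, 3713 to 3840 RPKM in ITD and 2547 to 3171 RPKM in WT. Among 10 proliferation markers 3 fell and none rose. The sort marker gene Itgam averaged 27.0 RPKM in DKOITD, 87.7 RPKM in ITD and 111 RPKM in WT. Its DKOITD libraries all lay below the WT libraries (limma adjusted p = 0.0081). The part of these marker shifts in the differences of the members was not tested.

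Complex I held 4 of the 8 calls. These were 11.4% of its 35 tested members, against 12.7% of all genes. Ndufa9, an accessory subunit of the matrix arm (chromosome 6, 126821721 to 126849136 in mm10), stood at 92.7, 72.4, 91.1 and 81.3 RPKM in DKOITD libraries 1 to 4, against 81.9 and 98.8 in ITD and 31.6, 25.3 and 60.8 in WT. Every DKOITD library stood above every WT library, and the difference was 1.18 ± 0.32 (log2, SE; limma adjusted p = 0.035). Ndufa12, another accessory subunit of the matrix arm (chromosome 10, 94198720 to 94221443), measured 94.9, 94.1, 86.2 and 67.9 RPKM in DKOITD, against 45.6 and 62.2 in ITD and 45.4, 33.7 and 42.9 in WT. Its DKOITD libraries stood above all 5 others, and it rose by 1.06 ± 0.28 against WT (log2, SE; limma adjusted p = 0.0295).

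Ndufa10, an accessory subunit of the membrane arm (chromosome 1, 92439010 to 92473860), measured 87.6, 74.0, 69.5 and 47.5 RPKM in DKOITD, against 42.1 and 40.5 in ITD and 6.85, 7.09 and 61.6 in WT. WT 3 lay within the DKOITD range while WT 1 and WT 2 lay far below it, so the groups overlapped although the difference of 2.12 ± 0.61 passed the test (log2, SE; limma adjusted p = 0.0409). Ndufb7, an accessory subunit on the intermembrane side (chromosome 8, 83566671 to 83571626), measured 340.5, 306, 254 and 353 RPKM in DKOITD, against 447 and 412 in ITD and 654, 794 and 436 in WT. The DKOITD libraries stood below the other 5, and the gene fell by 0.97 on the log2 scale against WT (SE 0.26; limma adjusted p = 0.0341). Over the 35 tested members of complex I, 3 rose and 1 fell, with a median of −0.09.

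The 7 core subunits, which carry electrons through complex I, had a median difference of 0.45 with 6 above 0. None of them passed the test, against 12.7% of all genes, while 3 had an unadjusted p under 0.05 (42.9%, against 30.2%). Ndufs8 measured 249, 132, 171 and 155 RPKM in DKOITD, against 179 and 131 in ITD and 56.8, 79.0 and 124 in WT, at 1.05 ± 0.33 (log2, SE; limma adjusted p = 0.0548). Ndufs3 measured 49.8, 33.8, 57.6 and 41.7 RPKM in DKOITD, against 33.1 and 50.1 in ITD and 29.8, 4.14 and 23.4 in WT, at 1.55 with an adjusted p of 0.0773 (limma). In both genes every DKOITD library lay above every WT library. The 28 accessory subunits had a median of −0.24, with 11 above 0 and 17 below. Without WT 1 and WT 2 the median of the core subunits was 0.27, with 5 above 0 and 2 below.

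The 4 subunits of complex II, succinate dehydrogenase, also belong to the citric acid cycle. All 4 had a difference above 0 between DKOITD and WT, with a median of 0.60. None passed the test, against 12.7% of all genes, while 2 had an unadjusted p under 0.05 (50%, against 30.2%). Sdhb, the iron-sulphur subunit, measured 329, 224, 297 and 239 RPKM in DKOITD, against 201 and 198 in ITD and 230.2, 111 and 145 in WT, at 0.79 ± 0.29 (log2, SE; limma adjusted p = 0.0912). Sdhd, a membrane anchor, measured 202, 197, 177 and 149 RPKM in DKOITD, against 174 and 171 in ITD and 83.1, 91.2 and 151 in WT, at 0.78 (limma adjusted p = 0.0836). Sdha, the flavoprotein that oxidizes succinate, had a difference of 0.26 and Sdhc, the other anchor, 0.42. Without WT 1 and WT 2 the median of the 4 subunits was 0.36, with all 4 above 0.

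Sdhaf1, which delivers iron-sulphur clusters to Sdhb and is itself no subunit, had the largest difference of the 80 tested members between DKOITD and both other groups. It measured 31.9, 47.2, 57.8 and 12.4 RPKM in DKOITD, against 2.86 and 1.68 in ITD and 3.81, 4.39 and 8.39 in WT (chromosome 7, 30321406 to 30323895, minus strand). Every DKOITD library stood above the other 5. It rose by 2.42 ± 0.53 against WT (log2, SE; limma adjusted p = 0.0137) and by 3.38 ± 0.60 against ITD (limma adjusted p = 0.0471). Over 23 alternatives the call against WT was kept in 19 and that against ITD in 9. An antisense gene, E130208F15Rik, overlaps 69.6% of its exon bases in GENCODE vM21, and without strand the reads of the 2 genes cannot be told apart. Sdhaf2, which attaches the flavin to Sdha, had a difference of 0.56 against WT (limma adjusted p = 0.366).

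In complex III, 1 of the 8 tested members passed (12.5%, against 12.7% of all genes). Uqcrc1, a large matrix-facing core protein (chromosome 9, 108936633 to 108949623), measured 294, 200.2, 269.8 and 189 RPKM in DKOITD, against 234 and 201 in ITD and 49.7, 53.0 and 201 in WT. WT 3 lay within the DKOITD range and WT 1 and WT 2 lay far below, and the difference was 1.52 ± 0.43 (log2, SE; limma adjusted p = 0.0394). The 3 most abundant members stayed within their spread. Uqcrh, the hinge protein, had a difference of −0.14, Uqcr10 −0.29 and Uqcr11 −0.10, and the median of the complex was −0.12.

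In complex IV, 2 of the 14 tested members fell (14.3%, against 5.27% of all genes) and none rose (7.43% of all genes rose). Cox7a2, the widely expressed form of subunit 7a (chromosome 9, 79755361 to 79759878), measured 261, 219, 223 and 296 RPKM in DKOITD, against 369 and 244 in ITD and 543, 631 and 402 in WT. Cox5a, a matrix-facing subunit (chromosome 9, 57521274 to 57532426), measured 304, 211, 197 and 294 RPKM in DKOITD, against 414 and 418 in ITD and 639.8, 467 and 370.0 in WT. In both, every DKOITD library lay below every WT library. Cox7a2 fell by 1.06 on the log2 scale (SE 0.27; limma adjusted p = 0.0254) and Cox5a fell by 0.96 (SE 0.27; limma adjusted p = 0.0404). Of the 14 tested members 11 had a difference below 0, with a median of −0.14.

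The most abundant members of complex IV showed smaller differences. Cox4i1 measured 925, 859, 887 and 939 RPKM in DKOITD, against 895 and 658 in ITD and 822, 884 and 733 in WT, at 0.15 ± 0.23 (log2, SE; limma adjusted p = 0.674). Cox6b1, which links the partners of the dimer, measured 529.6, 571, 510.4 and 572 RPKM in DKOITD, against 523 and 570.4 in ITD and 602, 448 and 646 in WT, at −0.04 ± 0.23. Cox6a1, the common form of subunit 6a, had a difference of −0.48 ± 0.25 (log2, SE; limma adjusted p = 0.21). Cox7a2l, the supercomplex factor, measured 169, 142, 156 and 139 RPKM in DKOITD, against 86.2 and 115 in ITD and 111, 77.7 and 86.7 in WT. Its DKOITD libraries lay above the other 5 without passing the test, at 0.73 ± 0.26 (log2, SE; limma adjusted p = 0.0798).

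Several subunits of complex IV have a second form used in other tissues, and their levels ran from 0 in every library to above 20 RPKM in some. Cox7b2, Cox8b, Cox8c and Ndufa4l2 were listed at 0 in all 9 libraries. Cox4i2, the oxygen-sensitive lung form of subunit 4, was listed at 0, 24.1, 3.94 and 0 RPKM in DKOITD, at 0 and 0.352 in ITD and at 0 in all WT libraries, and it entered the test through 2 DKOITD libraries. Its difference of 1.74 ± 0.92 did not pass (log2, SE; limma adjusted p = 0.223). Cox7a1, the muscle form of subunit 7a, was above 0 in DKOITD 1 (2.49 RPKM) and DKOITD 2 (0.747 RPKM) and listed at 0 in the other 7 libraries, and the muscle form Cox6a2 was above 0 in DKOITD 1 alone (0.503 RPKM). Cox6b2, the testis form of subunit 6b, measured 11.8, 16.3, 28.3 and 12.3 RPKM in DKOITD, against 22.6 and 5.08 in ITD and 20.8, 8.78 and 26.4 in WT, with overlapping groups. Ndufa4 had a difference of −0.15 ± 0.30 while its paralogue AA467197, which is no member, stood at −4.72 ± 0.86 between DKOITD and WT (log2, SE; limma adjusted p = 0.0068).

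In complex V none of the 15 tested subunits passed in any comparison, against 12.7% of all genes between DKOITD and WT. Between these groups 7 had an unadjusted p under 0.05 (46.7%, against 30.2% of all genes), and the median difference was 0.00. The 5 subunits of the F1 head, which makes ATP, had a median of 0.49 with 4 above 0. Atp5a1, its α subunit, measured 176, 162, 179.7 and 159 RPKM in DKOITD, against 126 and 105 in ITD and 78.3, 51.1 and 189.7 in WT, at 0.88 ± 0.38 (log2, SE; limma adjusted p = 0.141). The exception in the head was its smallest subunit, Atp5e, at −0.61 ± 0.26 (log2, SE; limma adjusted p = 0.136). Without WT 1 and WT 2 the median of the 5 head subunits was −0.12, with 1 above 0. The 3 small membrane subunits Atp5k, Atp5j2 and Atp5l all had differences below 0, with a median of −0.38.

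The c ring, which turns in the membrane, is made of 1 protein from 3 genes. Atp5g3 was the most abundant of them, at 119, 149.9, 110.1 and 75.7 RPKM in DKOITD, against 103 and 100.0 in ITD and 273, 259 and 141 in WT, and differed by −0.96 ± 0.32 from WT (log2, SE; limma adjusted p = 0.0668). Atp5g1 measured 42.0, 33.4, 46.7 and 30.7 RPKM in DKOITD, against 28.5 and 30.2 in ITD and 35.3, 11.6 and 21.1 in WT, at 0.84 ± 0.38 (log2, SE; limma adjusted p = 0.157). The 2 genes thus lay on opposite sides of 0, and neither passed. Atp5g2 stayed at or below 1.86 RPKM, and it has 2 near-identical copies. Atp5s and Atp5sl, which encode no subunit, stayed at or below 16.1 RPKM and overlapped between the groups.

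Between DKOITD and ITD, 1 of the 80 tested members passed (1.25%), against 0.212% of all genes. This was Sdhaf1, which rose (0.156% of all genes rose), and no member fell (0.0552% of all genes fell). The median difference of the members was 0.06, against 0.11 over all genes, with 46 above 0 and 34 below. At an unadjusted p under 0.05 stood 3 members, Sdhaf1, Ndufs4 and Cox5a, which is 3.75% against 15.7% of all genes, and the groups did not overlap in 22 members (27.5%, against 31.3% of all genes). Between ITD and WT none of the 80 passed (limma), against 0.00920% of all genes, while 8 had an unadjusted p under 0.05 (10%, against 7.93%). The ITD and WT libraries did not overlap in 21 members (26.2%, against 19.1% of all genes). ITD was higher in 10 of them (10.1% of all genes) and lower in 11 (8.99% of all genes), and the median difference was −0.08, against 0.00. Comparisons that share a group are not independent of each other.

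Within a group the members varied less than other genes. The median SD of log2(RPKM + 1) between the libraries of a group was 0.21 over the members in DKOITD, 0.15 in ITD and 0.49 in WT, against 0.47, 0.36 and 0.68 over all genes tested. Much of that gap goes with level, since the 1716 genes with a mean log2 level above 5 had median SDs of 0.30, 0.22 and 0.50 in the same order, beside 0.20, 0.14 and 0.47 for the 68 members above that level. The WT libraries spread wider than the DKOITD libraries in 76 of the 80 members.

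The sign of the difference between DKOITD and WT went with the length of the gene. The length behind each RPKM value was recovered from the steps of the values and ran from 292 to 3097 bp over the tested members. The 32 members under 600 bp had a median difference of −0.28 between DKOITD and WT, with 29 below 0, and the 27 members of 1000 bp or more had a median of 0.45, with 22 above 0. Over all genes tested the medians of the same classes were 0.15 and 0.16, and over genes with a mean log2 level above 5, members included, −0.20 (80 of 131 below 0) and 0.05 (671 of 1278 above 0). Of these 131 short genes 30 were members, and 28 of the 30 lay below 0. Most of the excess below 0 among short abundant genes thus came from the members. Across the 80 members the difference followed log2 length with Pearson's r of 0.43 and Spearman's rho of 0.53, against a rho of −0.21 across all genes. Genes are not independent replicates, and these points share their libraries. The core subunits of complex I had a median length of 1472 bp, against 651 bp over all tested members of that complex.

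WT 1 and WT 2 carried this pattern. Relative to the median of each gene over 9 libraries, short members stood at 0.03, −0.01, −0.21 and 0.00 in DKOITD libraries 1 to 4, against 0.00 and −0.04 in ITD and 0.55, 0.50 and −0.03 in WT. Long members stood at 0.24, 0.00, 0.10 and 0.00 in DKOITD, 0.03 and 0.00 in ITD, and −0.29, −0.82 and −0.03 in WT. WT 1 and WT 2 were both above the other 7 libraries in 17 of the 32 short members (53.1%, against 12.5% of all short genes tested) and both below them in 11 of the 27 long members (40.7%, against 10.1%). Among genes with a mean log2 level above 5, members included, these shares were 29% of the short genes and 16% of the long ones. The short ones stood at 0.35 in WT 1 and 0.24 in WT 2, and the long ones at −0.03 and −0.08.

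Without WT 1 and WT 2, an alternative chosen after seeing the data, none of the 80 members passed (limma), while 318 of all genes did, with the lone WT 3 assumed to vary like the other groups. The median difference of the members was then 0.12, short members had a median of −0.02, long members 0.22, and the rho with length was 0.11. The differences of Uqcrc1 and Ndufa10 were 0.22 and 0.14 without these 2 libraries, those of Ndufa12 and Sdhaf1 0.97 and 1.83, and those of Cox7a2, Cox5a and Ndufb7 −0.69, −0.58 and −0.49. Whether RNA quality, the erythroid RNA of WT 1 and WT 2 or another trait of these libraries bears on the pattern was not tested. In DKOITD against ITD, which uses neither library in its means, short members had a median of −0.02 and long members 0.16.

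Signs also depended on how the columns are scaled. The DKOITD columns were divided by 1.13 to 1.44 times their recovered reads and the WT columns by 0.703 to 0.810 times. Scaled per recovered read, the median over all genes between DKOITD and WT moved to 0.74 and that of the members to 0.70, and scaled to equal summed RPKM to 1.24 and 1.32. Relative to all genes, the members thus lay slightly below, level and slightly above in the 3 scalings. On the log2(RPKM + 1) scale a column factor moves low genes less than abundant ones. This order is therefore no result about the members. Cox7a2, Cox5a and Ndufb7, which fell in the deposited values, stood at −0.29, −0.19 and −0.20 per recovered read and above 0 at equal summed RPKM, whereas Ndufa9, Ndufa10, Ndufa12, Uqcrc1 and Sdhaf1 were higher in DKOITD in all 3. The members together held 1.28% to 1.77% of recovered reads in DKOITD, 1.11% and 0.976% in ITD and 1.06%, 0.870% and 0.934% in WT. Such shares, like equal summed RPKM, depend on the library total, in which single genes weigh much. The neutrophil marker S100a8 alone stood at 21751 to 170576 RPKM in DKOITD and 518857 to 725585 RPKM in WT. Summed RPKM was 442684 to 725674 in DKOITD and 1340290 to 1645340 in WT.

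In the deposited values the genes with the promoter motifs did not share a sign. At equal summed RPKM, however, 0 of the 80 tested members lay below 0 between DKOITD and WT. Of the 6 genes with windows printed above, Ndufa11 had a difference of 0.30, Ndufa8 of 0.28 and Atp5g2 of 0.27 between DKOITD and WT, while Atp5l had −0.38, Cox6a1 −0.48 and Atp5k −0.79. None of the 6 passed the test, with SEs of 0.35, 0.29, 0.48, 0.35, 0.25 and 0.30 in the same order. By recovered length those below 0 were the shortest, at 513, 533 and 292 bp, against 647 to 2661 bp for those above. By a single GENCODE transcript per gene this order did not hold. Atp5l, Cox6a1 and Atp5k had 544, 571 and 371 nt, against 545, 861 and 441 nt for Ndufa11, Ndufa8 and Atp5g2. The other NRF1 holders, Uqcrc1 and Uqcr11, have matches that run past or lie after the start site, and their differences were 1.52 and −0.10. Over the 8 holders the median was 0.09, with 4 above 0 and 4 below. Tested members with the ETS motif had a median of −0.22 (6 of 18 above 0), and those with the YY1 motif −0.29 (2 of 7 above 0). Nrf1 itself measured 8.29, 4.56, 3.27 and 4.12 RPKM in DKOITD, against 6.38 and 5.70 in ITD and 6.61, 4.65 and 8.74 in WT, and neither it nor Gabpa nor Yy1 passed the test in any comparison.

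Other mitochondrial genes were read from lists chosen with earlier results known. Of 76 genes of the mitochondrial ribosome, which makes the mitochondrially encoded subunits, 12 rose in DKOITD against WT and none fell (15.8% called, against 12.7% of all genes), with a median of 0.82 against 0.17 over all genes. Mrps10 measured 20.7, 23.2, 13.8 and 18.7 RPKM in DKOITD, against 14.8 and 11.9 in ITD and 0.950, 0.748 and 4.82 in WT, a difference of 2.87 (limma adjusted p = 0.00477). Without WT 1 and WT 2, which leaves WT 3 alone in its group, the median of the list was 0.26.

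Of 41 tested assembly factors, 4 rose and 3 fell (17.1% called, against 12.7% of all genes), with a median of 0.65. Besides Sdhaf1 the rises were Ndufaf6 (2.64), Nubpl (2.32), which brings iron-sulphur clusters to complex I, and Ndufaf7 (1.47). The falls were Pet100 (−1.27), Cox17 (−1.19), a copper carrier of complex IV, and Cmc2 (−1.10). The calls in the next 4 lists made up 11.8% of the citric acid cycle genes, 10% of the carriers, 9.09% of the electron carriers and 4.35% of the regulators, all below the 12.7% of all genes. Of 17 citric acid cycle genes Idh3g (1.76) and Fh1 (1.39) rose and none fell. Among 20 carriers the ATP and ADP exchangers Slc25a4 (3.67; limma adjusted p = 0.00315) and Slc25a5 (1.04) rose.

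Slc25a4 measured 117, 110.1, 145 and 73.5 RPKM in DKOITD, against 50.3 and 42.8 in ITD and 20.1, 1.92 and 9.36 in WT. The DKOITD libraries lay above all 5 others. Among 22 electron carrier and coenzyme Q genes, Gpd2 (−2.05) and Sqrdl (−1.63), both of which feed electrons to coenzyme Q from outside complexes I and II, fell and none rose. Of 23 tested regulators of mitochondrial biogenesis Myc rose (3.02) and none fell. Without WT 1 and WT 2, none of the assembly factors, citric acid cycle genes, electron carriers or regulators passed and 1 carrier did, while calls over all genes went down to 318, against 1380 with all libraries. The highest difference was then 2.86 among assembly factors, 2.12 among citric acid cycle genes and 2.65 among regulators, against 2.64, 1.76 and 3.02 with all libraries. No symbol of a mitochondrially encoded subunit was found in the table, so the nuclear and mitochondrial subunits were not compared here.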

How the data were processed

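RNA was sequenced in 9 libraries of sorted Mac1+ cells, 4 DKOITD, 2 ITD and 3 WT, grouped and numbered as their titles give. The authors deposited 1 table of RPKM with a row per gene symbol. The submitters' processing notes list STAR 2.4.2a, SAMtools 1.1, HTSeq 0.6.1p1 and mm10 without role or order. Whole reads were recovered from the RPKM steps (15564 of 15566 genes above 0, tolerance 0.0001 reads) and came to 2825728 to 23124435 per library. They served for depth, gene lengths and 1 alternative scaling. Because the smallest fitting length was taken, some lengths may be too short, and no count model was run. Recovered lengths can also depart from that of a single transcript, at 2661 bp against 545 nt in Ndufa11 and 400 bp against 3479 nt in Ndufab1.

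The 10868 genes that reached 1 RPKM in 2 or more libraries were fitted as log2(RPKM + 1), which understates changes of low genes, with limma 3.58.1 in R 4.3.3 (lmFit, eBayes with a trend). All 9 libraries entered 1 fit with group as the factor. Tests were two-sided, adjusted by Benjamini-Hochberg over all genes, with a threshold of 0.05, and the fit was tested on simulated data. The members, the lists and the motifs were chosen with earlier results of these data known, so lists are given by counts and medians without a test. The NRF1 motif was shortened to 9 letters after a first search had been seen.

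Genes were named by rule: members past the threshold, the 3 most abundant and the extreme differences of each complex, paired isoforms, symbols that are no subunits, Ndufa4 with its paralogue, and up to 3 called genes per further list by smallest adjusted p. Other called genes of the lists, other subunits with values and the promoter factors were added after their values were seen. Positions and overlaps come from GENCODE vM21. Alternatives were another pseudocount, 2 filters, 4 scalings, no trend, library weights, 2 groups alone, a replicate block, a term for the label number series, and libraries left out.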

Additional observations from a re-analysis of the deposited data

Results flagged for a closer look

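In the DKOITD group of 4, 2 of the 38 named members that varied there had 1 library far from the others, by a gap above Dixon's 95% critical value for 4 samples. Chance gives about 1 in 20. Ndufa1, a small accessory subunit of complex I, measured 414 RPKM in DKOITD 2, against 305 to 313 RPKM in the other DKOITD libraries. Cox6a2, the muscle form of a complex IV subunit, measured 0.503 RPKM in DKOITD 1 and was listed at 0 in the other 8 libraries. With every other DKOITD value at 0, the gap equals the whole range at any level, so the flag of Cox6a2 was fixed in advance.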

How the results depend on the processing

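Between DKOITD and WT the count of members past the threshold was 8 as reported. It was 3 with no filter on low values, 1 without a trend, 3 with the 2 groups alone, 4 with a replicate block, 0 with a term for the label number series, 0 without WT 2 and DKOITD 2, and 0 without WT 1 and WT 2. Leaving out 1 library at a time it ran between 0 (without DKOITD 3) and 22 (without WT 3), with 1 without DKOITD 1 or WT 2, 3 without DKOITD 2 or either ITD library, 4 without WT 1 and 5 without DKOITD 4. It was 31 per recovered read and 62 at equal summed RPKM, with medians of 0.70 and 1.32, and the median was 0.12 without WT 1 and WT 2. The other scalings and the other filter gave 8 or 9 and a pseudocount of 0.1 gave 6. The cause was not tested.

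Between DKOITD and ITD the count was 1 as reported, 21 at equal summed RPKM (median 1.11), 1 per recovered read (median 0.60), and 0 with a pseudocount of 0.1, no filter, equal medians, no trend, the 2 groups alone, the label number term or without WT 2 and DKOITD 2. It was 0 or 1 with a library left out, and 0 without DKOITD 1, 2 or 3, ITD 1, ITD 2, WT 1 or WT 3. Between ITD and WT it was 0, and 2 without WT 3, with a range of 0 to 2 over the libraries left out. The ITD and WT median was 0.25 at equal summed RPKM, 0.13 per recovered read and 0.0606 without WT 1 and WT 2.

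Signs turned with the scaling in many members. Between DKOITD and WT 41 of 80 turned at equal summed RPKM and 33 per recovered read, between DKOITD and ITD 34 and 30, and between ITD and WT 25 and 16. Among the named members, those that had passed and turned, or turned and then passed, were at equal summed RPKM between DKOITD and WT Atp5e (0.79), Atp5j (1.11), Cox5a (0.45), Cox6a1 (0.92), Cox6b1 (1.37), Cox7a2 (0.35), Cox7b (1.26), Cox8a (0.95), Ndufa4 (1.26), Ndufb7 (0.44), Uqcr10 (1.11), Uqcr11 (1.31) and Uqcrh (1.26), and per recovered read Cox6b1 (0.73). Between DKOITD and ITD they were, at equal summed RPKM, Atp5e (1.04), Cox6b1 (1.07) and Cox8a (1.05). Both scalings shift all genes, so these signs are relative to the scale chosen.

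Over 23 alternatives Sdhaf1 kept its call against WT in 19, Ndufa12 in 14, Cox7a2 in 13, Ndufa9 in 9, Ndufa10 in 8 and Cox5a, Ndufb7 and Uqcrc1 in 7 each. Sdhaf1 kept its call against ITD in 9. Same-numbered libraries deviated together no more than others (correlations across genes of −0.04 to 0.07, against −0.13 to 0.17). Deviations were taken from group means, so the 2 ITD libraries mirror each other, and the check cannot exclude a pairing. The block is given only for the count. The label numbers are under 300 in DKOITD 1 to 3 and above it in the other 6 libraries, so within a series DKOITD 4 stands alone against WT. Amplified reads carry no molecular identifiers, so depth covers counting error only.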
